A study of Homo sapiens with 12 samples.

Results

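The genes described here are 37 genes of sterol and fatty acid synthesis, chosen by name as known pathway members. Earlier results of these data were known when they were chosen. Of the 37 genes, 33 had a probe set annotated to that gene alone, and 32 passed a filter on low values and were tested among 10626 genes in all. The untested members were FDFT1, ACSL3, CYP51A1, FADS1 and FADS2. The probe sets of CYP51A1 and FADS1 were annotated to several genes and were not analysed here. FADS2, a fatty acid desaturase, stayed below the filter in every array, at log2 values of 2.64 to 2.96.

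The data are 12 Affymetrix expression arrays of HK-2, a line of immortalised epithelial cells from the proximal tubule of the human kidney. The 4 groups were cells exposed to the compound called Di for 12 h, vehicle control at 12 h, cells exposed to Di for 48 h and vehicle control at 48 h, each with 3 biological replicates. Cells of all groups grew in a medium with EGF, hydrocortisone, insulin and transferrin and were treated close to confluence. The identity of Di and its dose are not given in the sources used here. The comparisons asked how expression changed after exposure to Di at each time. Since all arrays come from 1 cell line, p-values measure the spread between these cultures.

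Animal cells build cholesterol from acetyl-CoA through mevalonate, isoprenoids, squalene and lanosterol, and build saturated fatty acids from the same acetyl-CoA through malonyl-CoA. The SREBP transcription factors drive both routes. They are held in the endoplasmic reticulum by SCAP and INSIG proteins while sterols are plentiful and are cut free in the Golgi when sterols run short. Proximal tubule cells depend on fatty acid oxidation for energy.

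Values are log2 expression values as deposited, 1 probe set per gene, and a change is a difference of log2 values, Di minus control unless stated. Errors beside changes are standard errors of the limma fit, those beside group means are SDs over 3 arrays, and a gene was called at a Benjamini-Hochberg adjusted p under 0.05 over all 10626 genes. Array medians lay between 2.97 and 3.06. The array most distant from its group was Di replicate 2 at 12 h, with a root mean square deviation of 0.252 log2 units, and the other arrays ranged from 0.111 to 0.182. The signal gap between the 3′ and the 5′ end of the actin control transcript, a readout of RNA integrity, averaged 1.22 ± 0.239 with Di after 12 h and 1.71 ± 0.178 in its control (exact permutation test, two-sided p = 0.1, the lowest value possible with 3 arrays a group). After 48 h the gap averaged 1.41 ± 0.0776 with Di and 1.33 ± 0.128 in its control (exact permutation p = 0.5). The same gap of GAPDH after 12 h averaged 0.0518 ± 0.0994 with Di and 0.126 ± 0.0841 in its control (exact permutation p = 0.3). Its ranges overlapped, at -0.01 to 0.17 and 0.03 to 0.19. After 48 h the GAPDH gap averaged -0.034 ± 0.0396 and 0.000125 ± 0.0206 (exact permutation p = 0.2). Of 10 proximal tubule markers, 0 exceeded the log2 floor of 4 in at least 3 arrays (highest value 3.87), while 6 of 6 general epithelial markers did. The proximal tubular origin is thus known from the labels alone.

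**Figure D1:**
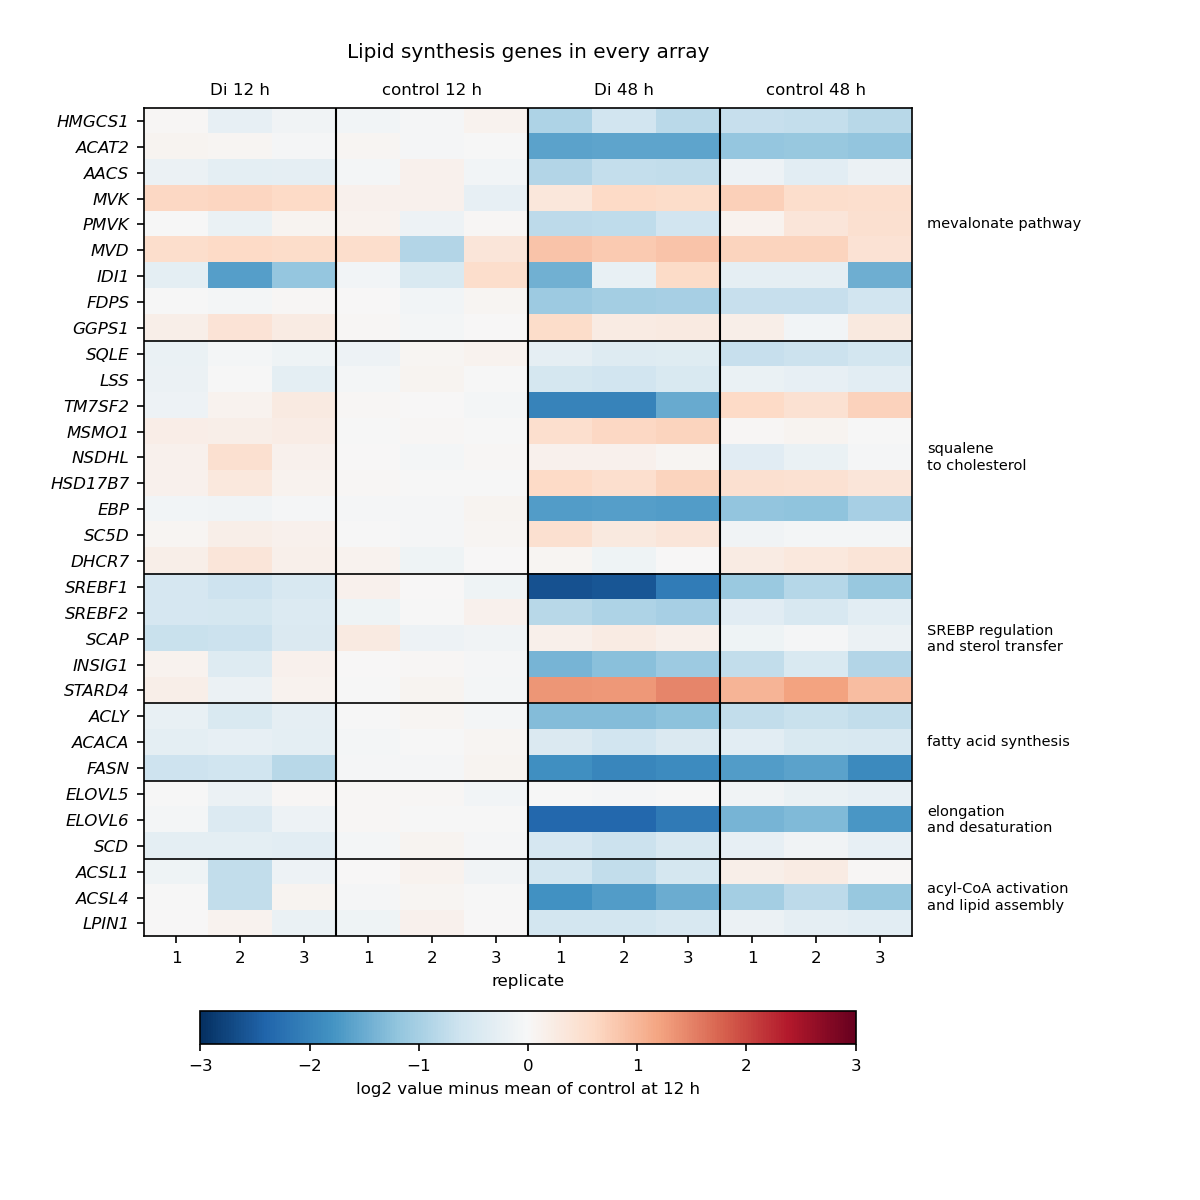
Log2 values of the 32 tested genes (rows, grouped by role) in the 12 arrays (columns, Di 12 h, control 12 h, Di 48 h and control 48 h), each minus the gene's mean in control at 12 h. Blue is lower and red higher, and SREBF1, ELOVL6, TM7SF2 and FASN are dark blue in Di at 48 h.

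At 12 h, genes of fatty acid synthesis and of SREBP control were called lower in Di-treated cells by the probe sets used. Among the genes called lower, FASN alone kept its call under every alternative processing. Cholesterol synthesis from squalene onward had no called member by the probe sets used, which with 9 tested genes is near the share of all genes. Of 32 members, 7 (21.9%) were called lower, against 9.78% of all genes tested, and 1 (3.12%) was called higher, against 3.9% of all genes. The 3 fatty acid synthesis genes FASN, ACLY and ACACA all fell, as did 3 of 5 genes of SREBP regulation and sterol transfer, namely SCAP, SREBF1 and SREBF2. The desaturase SCD also fell. The median change over the members was -0.0663, beside -0.0611 over all genes. The 3 Di values lay outside the range of the 3 control values in 18 of 32 members, beside 34.8% of all genes.

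FASN, the synthase that assembles palmitate, had values of 8.39, 8.41 and 8.18 in Di at 12 h, against 8.98, 8.98 and 9.09 in control at 12 h. The groups did not overlap, and the change was -0.69 ± 0.0932 (limma adjusted p = 0.00164), a 1.61-fold lower level. ACLY, the citrate lyase that supplies cytosolic acetyl-CoA, stood at 12.04, 11.80 and 11.99 in Di and at 12.24, 12.33 and 12.21 in control. Its change of -0.32 ± 0.0737 (adjusted p = 0.0174) was smaller than that of FASN, and again every Di array lay below every control array. ACACA, the acetyl-CoA carboxylase that makes malonyl-CoA, had 8.76, 8.81 and 8.76 in Di, against 9.00, 9.06 and 9.13 in control. Its change was -0.28 ± 0.0714 (adjusted p = 0.0247), with no overlap between the groups. SCD, which places a double bond into stearoyl-CoA, had 13.39, 13.40 and 13.38 in Di, against 13.63, 13.78 and 13.65 in control. The Di arrays were nearly equal and lay below all controls, with a change of -0.30 ± 0.0728 (adjusted p = 0.0221).

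SCAP, the escort that carries SREBPs to the Golgi, had values of 6.40, 6.41 and 6.63 in Di at 12 h, against 7.33, 6.90 and 6.96 in control at 12 h. All Di arrays were lower, and SCAP fell by 0.58 ± 0.112 log2 units (adjusted p = 0.00869). SREBF1, which encodes the SREBP that acts mainly on fatty acid genes, stood at 7.21, 7.09 and 7.23 in Di and at 7.84, 7.72 and 7.60 in control. Its change was -0.54 ± 0.136 (adjusted p = 0.0243), without overlap. SREBF2, which encodes the SREBP that acts mainly on sterol genes, stood at 7.17, 7.14 and 7.25 in Di and at 7.55, 7.65 and 7.81 in control. The groups did not overlap, and SREBF2 changed by -0.49 ± 0.0845 (adjusted p = 0.00573). INSIG1, the sterol-sensing retention protein, had 11.93, 11.42 and 11.95 in Di, against 11.82, 11.86 and 11.77 in control. Di replicate 2 was lower than every control while the other Di arrays were above them, and the change of -0.06 ± 0.149 was not called (adjusted p = 0.84). Without that array the INSIG1 change was 0.12. STARD4, a sterol carrier of the cytosol, was not called at 0.04 ± 0.105.

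MVK, the mevalonate kinase, was the 1 member that rose at 12 h. Its values were 6.55, 6.58 and 6.53 in Di, against 6.05, 6.06 and 5.68 in control at 12 h, so the groups were apart by 0.63 ± 0.11 (1.54-fold, adjusted p = 0.00601). Control at 48 h read 6.64, 6.46 and 6.44 for MVK, which put control at 12 h below the other 3 groups. HMGCS1, the synthase that makes HMG-CoA, had 10.29, 10.02 and 10.15 in Di, against 10.17, 10.23 and 10.37 in control. These ranges overlapped, and the change of -0.11 ± 0.106 was not called (adjusted p = 0.531). Of the 9 tested genes between squalene and cholesterol, 0 were called in limma at 12 h by the probe sets used. Their changes ran from -0.16 for the cyclase LSS to 0.25 for the dehydrogenase NSDHL. However, probe set 213787_s_at of EBP was called higher (0.34, adjusted p = 0.0388 over probe sets), and so was 213577_at of SQLE (0.38, adjusted p = 0.0376). The remaining kept probe sets of these genes were not called at 12 h.

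Several 12 h calls lay near the threshold. Without replicate 2 of control at 12 h, 3 members were called lower, and SREBF1, ACLY, SCD and ACACA had adjusted p-values of 0.0728, 0.0694, 0.0873 and 0.0731. Without replicate 3 of Di at 12 h, 4 were called lower, and SREBF1, SCD and ACACA had 0.0517, 0.061 and 0.0674. SREBF1 also lost its call without Di replicate 2 at 12 h (0.0594) and without control replicate 1 at 12 h (0.0758). SCD lost its call without Di replicate 1 at 12 h (0.0519) and without control replicate 3 at 12 h (0.0513), and ACACA likewise (0.0607 and 0.0876). The lower actin gap of Di at 12 h went with all of these values, and its part in them was not tested.

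**Figure D2:**
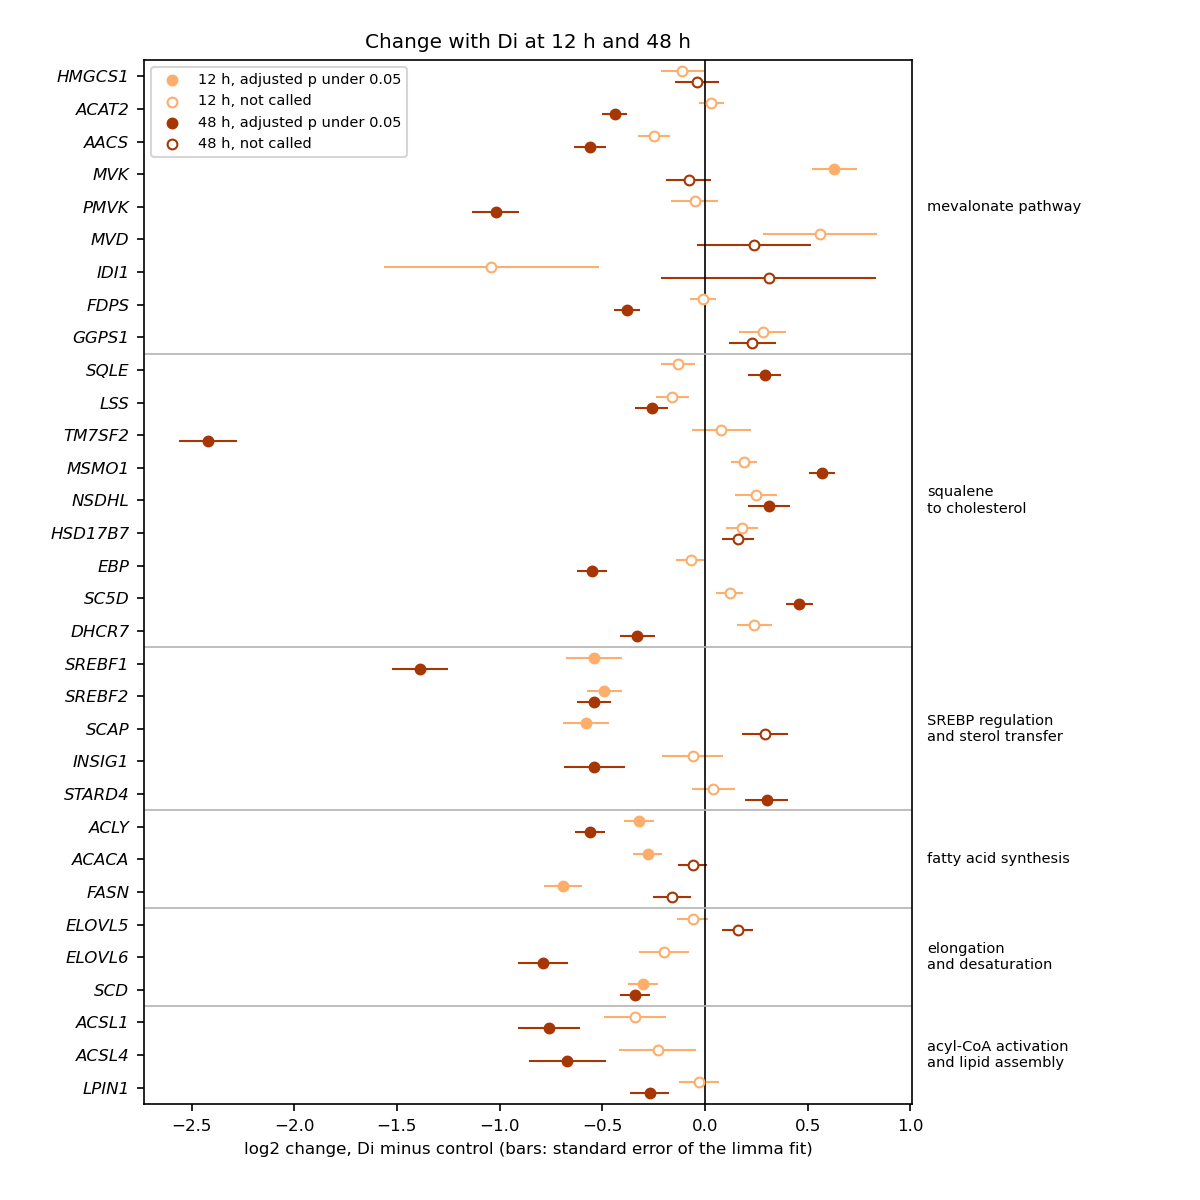
Log2 change, Di minus control, of the 32 tested genes at 12 h (light) and 48 h (dark), grouped by role. Bars are standard errors of the limma fit and filled points have an adjusted p under 0.05, as for 8 genes at 12 h and 22 genes at 48 h.

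At 48 h most of the members had changed, more of them down than up. Of 32 members, 17 (53.1%) were called lower, against 28.0% of all genes tested, and 5 (15.6%) were called higher, against 22.9% of all genes. The median change over the members was -0.265, beside -0.0188 over all genes. The Di and control values did not overlap in 26 of 32 members, beside 61.6% of all genes. The largest falls were those of TM7SF2 (5.37-fold), SREBF1 (2.62-fold) and PMVK (2.03-fold), and the largest rise was that of MSMO1 (1.48-fold). Enzymes between squalene and cholesterol went both ways, 4 higher and 4 lower of 9 tested.

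TM7SF2, a sterol reductase of the late cholesterol pathway, had values of 5.44, 5.44 and 5.93 in Di at 48 h, against 8.04, 7.90 and 8.15 in control at 48 h. Every Di array was more than 1 log2 unit below every control, and the change was -2.42 ± 0.142 (limma adjusted p = 1.14e-07). At 12 h TM7SF2 had read 7.29, 7.57 and 7.72 in Di and 7.50, 7.46 and 7.40 in control, where the groups overlapped. Other enzymes of the late steps that fell were EBP, the sterol isomerase (-0.55 ± 0.0715, adjusted p = 6.32e-05), DHCR7, the reductase that makes cholesterol from dehydrocholesterol (-0.33 ± 0.0858, adjusted p = 0.00687), and LSS, the lanosterol-forming cyclase (-0.26 ± 0.0808, adjusted p = 0.0201).

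Of the 5 members that rose, 4 belong to the same route. MSMO1, the sterol methyl oxidase, had 13.62, 13.74 and 13.77 in Di at 48 h, against 13.15, 13.19 and 13.09 in control at 48 h. All Di arrays were higher, by 0.57 ± 0.0625 (adjusted p = 1.81e-05). SC5D, a sterol desaturase, had 11.03, 10.86 and 10.92 in Di, against 10.46, 10.49 and 10.49 in control. The groups were apart, with a change of 0.46 ± 0.0651 (adjusted p = 0.000129). NSDHL, a dehydrogenase that acts after MSMO1, had 9.10, 9.12 and 9.05 in Di, against 8.64, 8.77 and 8.94 in control. The change was 0.31 ± 0.102 (adjusted p = 0.0255), and the highest control lay close to the Di arrays. SQLE, the squalene epoxidase and a rate-limiting step, had 11.59, 11.48 and 11.50 in Di, against 11.18, 11.22 and 11.31 in control. It rose by 0.29 ± 0.0821 (adjusted p = 0.0122), without overlap. HSD17B7, a sterol ketone reductase, was read only by a probe set marked for possible cross-hybridisation and was not called (0.16 ± 0.0763, adjusted p = 0.109).

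Promoter sequences are shown for the 3 members with the largest falls and the 3 with the largest rises at 48 h, since they let the regulatory letters be read beside the change. They are RefSeq windows of 300 bases on GRCh38.p14, from 250 bases before to 50 bases after an annotated start, written 5′ to 3′ on the strand of the gene. Capitals mark matches on either strand to GGGCGG (the GC box) or CCAAT (the CCAAT box, bound by NF-Y, a partner of SREBPs). The windows are chr11:65111622-65111921 (plus strand) for TM7SF2, chr17:17836937-17837236 (minus strand) for SREBF1, chr1:154936670-154936969 (minus strand) for PMVK, chr4:165327419-165327718 (plus strand) for MSMO1, chr11:121292521-121292820 (plus strand, the first of 2 windows listed) for SC5D and chrX:152830813-152831112 (plus strand) for NSDHL.
TM7SF2: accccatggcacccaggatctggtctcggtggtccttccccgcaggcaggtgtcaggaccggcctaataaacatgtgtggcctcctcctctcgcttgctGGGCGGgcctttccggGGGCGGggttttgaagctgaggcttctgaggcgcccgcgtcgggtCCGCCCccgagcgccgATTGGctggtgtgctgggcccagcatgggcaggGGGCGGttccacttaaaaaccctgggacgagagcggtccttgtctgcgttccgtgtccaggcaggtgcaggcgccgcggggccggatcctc
SREBF1: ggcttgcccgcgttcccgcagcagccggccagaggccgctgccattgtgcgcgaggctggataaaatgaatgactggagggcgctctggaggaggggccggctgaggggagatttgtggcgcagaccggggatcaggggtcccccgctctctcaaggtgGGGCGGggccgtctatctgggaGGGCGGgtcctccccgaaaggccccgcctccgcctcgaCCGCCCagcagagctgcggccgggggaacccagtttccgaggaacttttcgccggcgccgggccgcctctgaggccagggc
PMVK: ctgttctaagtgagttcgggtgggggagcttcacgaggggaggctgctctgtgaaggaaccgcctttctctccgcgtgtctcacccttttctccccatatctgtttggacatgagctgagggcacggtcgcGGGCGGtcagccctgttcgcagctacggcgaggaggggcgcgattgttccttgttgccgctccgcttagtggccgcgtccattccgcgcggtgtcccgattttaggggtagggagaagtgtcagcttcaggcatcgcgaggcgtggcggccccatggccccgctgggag
MSMO1: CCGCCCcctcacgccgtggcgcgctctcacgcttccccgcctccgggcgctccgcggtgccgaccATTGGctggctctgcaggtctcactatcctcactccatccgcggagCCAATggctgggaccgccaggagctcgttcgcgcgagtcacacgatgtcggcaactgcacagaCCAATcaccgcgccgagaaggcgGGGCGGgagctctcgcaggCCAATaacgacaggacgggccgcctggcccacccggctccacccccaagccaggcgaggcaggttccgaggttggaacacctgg
SC5D: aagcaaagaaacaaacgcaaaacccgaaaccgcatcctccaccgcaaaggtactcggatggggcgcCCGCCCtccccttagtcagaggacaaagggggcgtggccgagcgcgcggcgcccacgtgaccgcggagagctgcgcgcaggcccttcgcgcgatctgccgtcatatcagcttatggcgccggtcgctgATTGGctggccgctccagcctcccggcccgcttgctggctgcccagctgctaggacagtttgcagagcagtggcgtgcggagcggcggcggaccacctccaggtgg
NSDHL: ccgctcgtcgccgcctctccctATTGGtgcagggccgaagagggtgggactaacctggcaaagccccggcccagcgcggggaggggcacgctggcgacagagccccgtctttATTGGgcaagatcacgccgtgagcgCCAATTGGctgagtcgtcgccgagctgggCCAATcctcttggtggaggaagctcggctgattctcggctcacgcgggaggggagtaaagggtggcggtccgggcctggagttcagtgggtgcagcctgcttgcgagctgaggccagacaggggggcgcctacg

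The windows of MSMO1 and NSDHL, which rose, held 4 and 5 CCAAT matches, and that of SC5D, which also rose, held 1. MSMO1 also had 2 GC boxes and SC5D had 1. Among the genes that fell, TM7SF2 had 1 CCAAT match and 4 GC boxes, SREBF1 had 3 GC boxes and PMVK had 1 GC box. The 1 overlapping pair of matches was between CCAAT matches of NSDHL. Numbers of matches were taken for the printed windows alone, and a link between matches and direction of change was not tested. Over 27305 genes with a window (the first one listed per gene), 35.7% held CCAAT and 44.6% held GGGCGG, against 18 (62.1%) and 26 (89.7%) of the 29 tested members with a window. The sterol regulatory element TCACNCCAC, searched on both strands, was in 1.15% of all windows and in 1 of the 29 members, SREBF2. The core of the antioxidant response element, TGACNNNGC, was in 13.6% of all windows and in 2 of the 29, AACS and EBP, both lower at 48 h. The 27305 genes were not filtered by expression, while the 29 members had passed the filter on low values, so these shares compare unlike sets. A match describes letters in a window, not a bound site.

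In the mevalonate pathway, 0 of 9 tested members rose at 48 h, against 22.9% of all genes tested, and 4 (44.4%) fell, against 28.0%. PMVK, the phosphomevalonate kinase, had 6.41, 6.45 and 6.64 in Di at 48 h, against 7.32, 7.56 and 7.69 in control at 48 h. The groups were far apart, with a change of -1.02 ± 0.114 (adjusted p = 1.88e-05). AACS, which activates acetoacetate for lipid synthesis, had 8.04, 8.19 and 8.16 in Di, against 8.75, 8.60 and 8.73 in control. All Di arrays were lower, and the change was -0.56 ± 0.078 (adjusted p = 0.000105). ACAT2, the thiolase of the first step, fell by 0.44 ± 0.0601 log2 units (adjusted p = 9.85e-05) and FDPS, which makes farnesyl diphosphate, by 0.38 ± 0.0655 (adjusted p = 0.000503). HMGCS1 had 9.32, 9.68 and 9.44 in Di, against 9.57, 9.55 and 9.43 in control. Its groups overlapped and its change was -0.04 ± 0.106 (adjusted p = 0.794). MVK, the decarboxylase MVD, the isomerase IDI1 and GGPS1, which makes geranylgeranyl diphosphate, were not called, at -0.08, 0.24, 0.31 and 0.23.

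**Figure D3:**
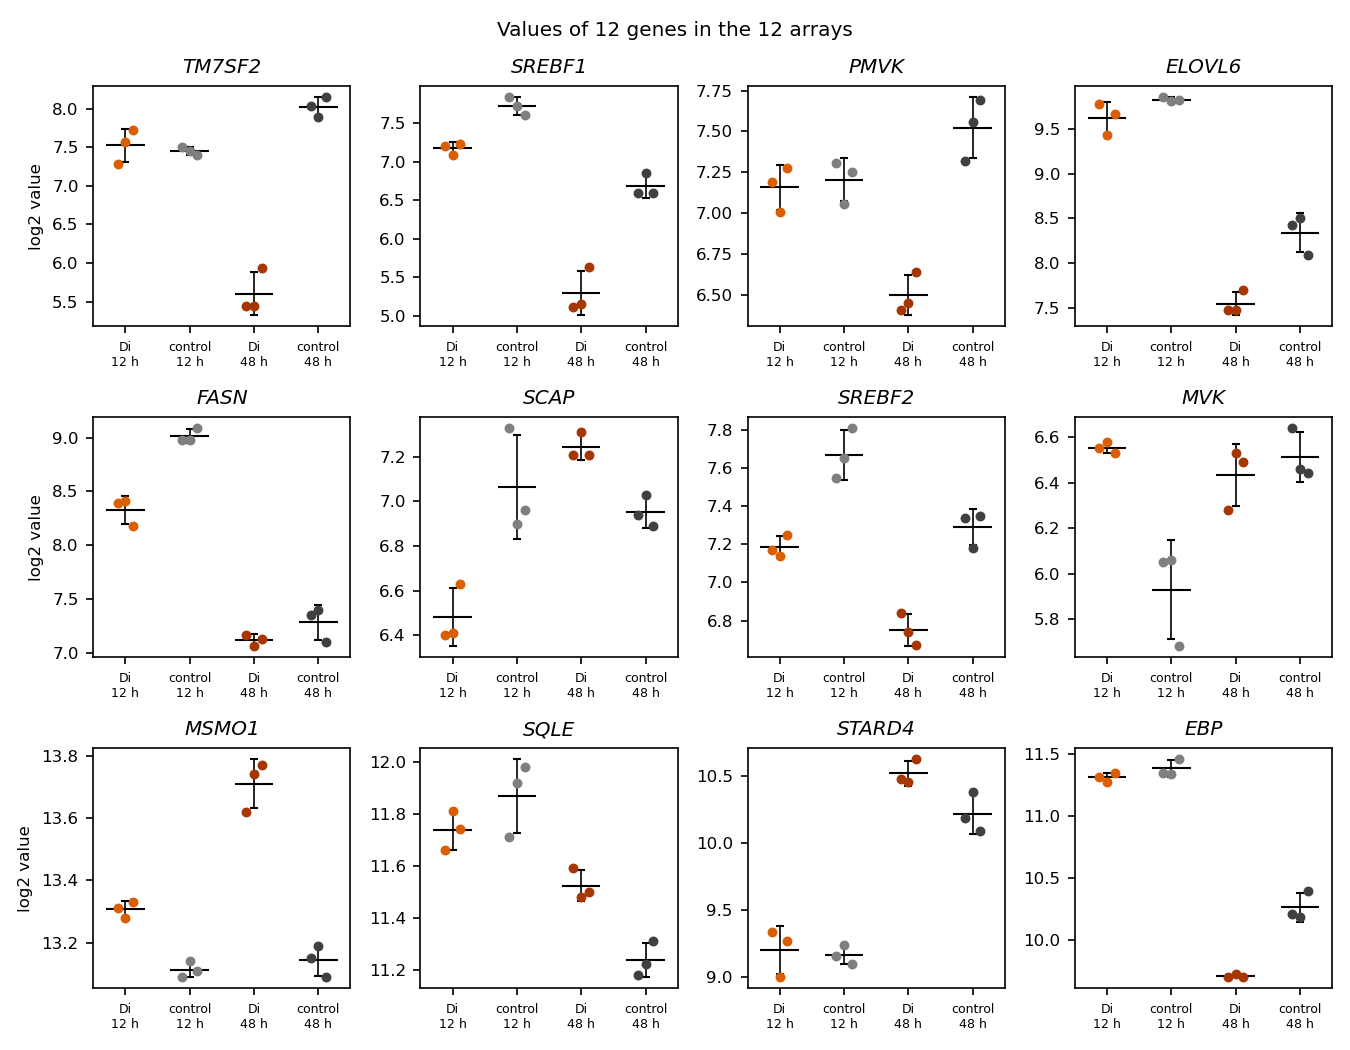
Log2 values of 12 genes in the 4 groups (Di 12 h, control 12 h, Di 48 h, control 48 h). Points are arrays, horizontal lines are group means and vertical bars are SDs of 3 arrays; the vertical axes differ between genes and do not start at 0. TM7SF2 is low in Di at 48 h alone, at 5.44 to 5.93, while FASN is low in both 48 h groups.

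Of 5 genes of SREBP regulation and sterol transfer, 3 (60.0%) were called lower at 48 h, against 28.0% of all genes tested. A single gene (20.0%) was called higher, against 22.9% of all genes. SREBF1 had 5.11, 5.15 and 5.63 in Di at 48 h, against 6.60, 6.86 and 6.59 in control at 48 h. Every Di array lay below every control, and the change was -1.39 ± 0.136 (adjusted p = 6.74e-06). SREBF2 had 6.84, 6.74 and 6.67 in Di, against 7.34, 7.18 and 7.35 in control. It fell by 0.54 ± 0.0845 log2 units (adjusted p = 0.000257), with no overlap. INSIG1, itself an SREBP target, had 10.43, 10.57 and 10.73 in Di, against 11.07, 11.36 and 10.94 in control. The lowest control stayed above the highest Di array, and the change was -0.54 ± 0.149 (adjusted p = 0.00995). STARD4 rose, with 10.48, 10.46 and 10.63 in Di, against 10.19, 10.38 and 10.09 in control. The gap between its groups was small, and the change was 0.30 ± 0.105 (adjusted p = 0.032). SCAP read 7.21, 7.31 and 7.21 in Di, against 6.94, 7.03 and 6.89 in control, and its change of 0.29 ± 0.112 was not called (adjusted p = 0.0509) although the groups did not overlap.

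In fatty acid synthesis, 1 of 3 genes (33.3%) was called lower at 48 h, near the 28.0% of all genes tested. ACLY had 10.97, 10.96 and 11.04 in Di at 48 h, against 11.53, 11.60 and 11.53 in control at 48 h. The groups were well separated, with a change of -0.56 ± 0.0737 (adjusted p = 6.7e-05). FASN had 7.17, 7.06 and 7.13 in Di, against 7.35, 7.40 and 7.10 in control. Here the ranges overlapped, and the change of -0.16 ± 0.0932 was not called (adjusted p = 0.182), although without replicate 3 of control at 48 h it was -0.25 (adjusted p = 0.0379). ACACA stood at -0.06 ± 0.0714 (adjusted p = 0.537).

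In elongation and desaturation 2 of 3 tested genes were called lower at 48 h, and in acyl-CoA activation and lipid assembly 3 of 3, against 28.0% of all genes tested. ELOVL6, which elongates palmitate, had 7.47, 7.47 and 7.70 in Di at 48 h, against 8.43, 8.50 and 8.09 in control at 48 h. All Di arrays were lower, and ELOVL6 fell by 0.79 ± 0.122 log2 units (adjusted p = 0.000233). SCD had 13.19, 13.05 and 13.20 in Di, against 13.44, 13.59 and 13.43 in control. The groups did not overlap, and SCD fell by 0.34 ± 0.0728 (adjusted p = 0.00222). ACSL1, an acyl-CoA synthetase of long-chain fatty acids, had 11.59, 11.39 and 11.61 in Di, against 12.30, 12.39 and 12.17 in control. It was lower in every Di array and fell by 0.76 ± 0.15 (adjusted p = 0.00133). ACSL4, the synthetase that prefers arachidonic acid, had 8.40, 8.55 and 8.74 in Di, against 9.20, 9.44 and 9.07 in control. Its groups were apart, and it fell by 0.67 ± 0.188 (adjusted p = 0.0115). LPIN1, a phosphatidate phosphatase, fell by 0.27 ± 0.0966 (adjusted p = 0.0347), and the elongase ELOVL5 was not called (0.16 ± 0.0755, adjusted p = 0.0951), although its Di arrays lay above all controls.

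The 48 h calls of NSDHL, STARD4, LSS and LPIN1 depended on single arrays. Without replicate 1 of Di at 48 h, or without replicate 1 of control at 48 h, 3 members were called higher, with adjusted p-values of 0.0597 and 0.105 for NSDHL and 0.0505 and 0.0849 for STARD4. NSDHL also lost its call without replicate 2 of either 48 h group (0.0697 for Di and 0.0645 for control), and STARD4 without replicate 3 of either (0.109 for Di and 0.118 for control). LSS lost its call without Di replicate 2 at 48 h (0.0697) and without control replicate 1 at 48 h (0.0713). LPIN1 lost its call whichever Di array of 48 h was left out (0.0838, 0.0878 and 0.0502), and without control replicate 1 (0.116) or 2 (0.0693) of that time.

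Some genes listed as cell type markers also differed at 48 h. All arrays come from 1 cell line, and a marker name alone does not show that cells of that type were present. Of 6 fibroblast markers, 3 were above the floor (DCN, LUM and COL1A1), while COL1A2, COL3A1 and PDGFRB were not. The summed linear level of the 6 was 682 to 869 in Di at 48 h, against 1365 to 1457 in control at 48 h. DCN fell by 1.01 on the log2 scale, LUM was called lower (-0.72) and COL1A1 was not called (-0.16). The summed level of the epithelial markers was 13202 to 14493 in Di at 48 h, against 16971 to 18812 in control at 48 h. These markers did not move together. CDH1 (-1.33), KRT19 (-1.19) and EPCAM (-0.65) were called lower, KRT18 (0.20) was called higher, and KRT8 (0.13) and KRT7 (0.11) were not called. Of 5 endothelial markers and 4 leukocyte markers with a probe set, 0 were above the floor. The part of these shifts in the 48 h values was not tested, and in such bulk samples fewer cells of a type and less RNA per cell cannot be told apart.

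The change with Di differed between the times for 15 of 32 members. In 10 (31.2%) it was lower at 48 h than at 12 h, against 18.5% of all genes tested, and in 5 (15.6%) it was higher, against 19.8% of all genes. The largest difference was that of TM7SF2, whose 48 h change minus 12 h change was -2.50 ± 0.201 (limma adjusted p = 4.32e-06), followed by PMVK (-0.97 ± 0.161, adjusted p = 0.00071). SCAP went the other way, at -0.58 after 12 h and 0.29 after 48 h, a difference of 0.87 ± 0.159 (adjusted p = 0.00135). FASN was lower with Di at 12 h and close to its control at 48 h, a difference of 0.53 ± 0.132 (adjusted p = 0.00827). For MVK the difference was -0.71 ± 0.156 (adjusted p = 0.00435). SREBF1, SREBF2, ACLY and SCD were called lower at both times, and of these SREBF1 alone was called for a difference, at -0.85 ± 0.192 (adjusted p = 0.00501).

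Control cells also changed between the times, so each 48 h value stands beside a control that had itself moved. Of 32 members, 17 (53.1%) were lower in control at 48 h than in control at 12 h, against 31.0% of all genes tested, and 6 (18.8%) were higher, against 21.9% of all genes. The median over the members was -0.235, beside -0.061 over all genes. FASN had 7.35, 7.40 and 7.10 in control at 48 h, against 8.98, 8.98 and 9.09 in control at 12 h. The groups were far apart, and FASN fell by 1.74 ± 0.0932 (3.33-fold, limma adjusted p = 7.89e-08). ELOVL6 fell by 1.49 ± 0.122 in control, ACAT2 by 1.15 ± 0.0601, EBP by 1.12 ± 0.0715 and SREBF1 by 1.03 ± 0.136, while STARD4 rose by 1.06 ± 0.105.

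The control change and the 48 h Di change share control at 48 h, so their values are given side by side only. EBP stood at -0.55 with Di at 48 h and at -1.12 in control between the times, and ELOVL6 at -0.79 and -1.49. Both were called lower in each comparison. TM7SF2 stood at -2.42 with Di and at 0.58 (adjusted p = 0.00536) in control between the times. PMVK stood at -1.02 and 0.31 and DHCR7 at -0.33 and 0.32, so these 3 were lower with Di and higher in later control by the probe sets used. For DHCR7 that rise was not shared by the other probe set, 201791_s_at, which was lower in later control (-0.24, adjusted p = 0.0232 over probe sets), and the mean of its probe sets gave 0.04 (adjusted p = 0.666). SQLE was higher with Di, at 0.29, and lower in later control, at -0.63 ± 0.0821. HMGCS1, whose Di change was not called, fell in control by 0.74 ± 0.106 (adjusted p = 0.000136). Its other probe set read 0.45 there, and the mean of both gave -0.15, which was not called (adjusted p = 0.504). The mean of kept probe sets also left SREBF2 (-0.07, adjusted p = 0.641), LPIN1 (-0.03, adjusted p = 0.779), LSS (0.21, adjusted p = 0.109) and SCD (0.19, adjusted p = 0.0601) uncalled in later control. In later control, PMVK lost its call without replicate 2 or 3 of either control group (adjusted p = 0.137 and 0.0603 at 12 h, 0.0922 and 0.139 at 48 h). AACS (-0.22) lost it without control replicate 2 of 12 h (0.139) or control replicate 2 or 3 of 48 h (0.124 and 0.0525), and LSS (-0.25) without control replicate 2 of 12 h (0.0784) or control replicate 3 of 48 h (0.0679). SCD (-0.20) lost it without Di replicate 1 or 3 of 12 h (0.0516 and 0.0525), control replicate 2 or 3 of 12 h (0.144 and 0.0584) or control replicate 1 or 3 of 48 h (both 0.118). LPIN1 (-0.25) lost it in 9 of the 12 runs without 1 array, at adjusted p-values of 0.054 to 0.172, and kept it without Di replicate 2 or 3 of 12 h or control replicate 1 of 12 h.

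Probe sets of the same gene did not always move together. The 32 members had 64 kept probe sets, and 19 members had more than 1. For the 8 members called at 12 h, 4 of 10 other probe sets had the same sign of change, and for the 22 called at 48 h, 19 of 24 had it, with 0 called the opposite way. At 12 h the others with the opposite sign were 3 of SCD and 1 each of SREBF2 (0.48), ACACA (0.05) and ACLY (0.04), of which 2 were called, both of SCD. The SCD probe set 211708_s_at had 9.48, 9.72 and 9.53 in Di at 12 h, against 8.93, 8.40 and 8.30 in control at 12 h. That change of 1.03 ± 0.158 (adjusted p = 0.00424 over probe sets) was opposite to the -0.30 of the SCD probe set used. The change was 0.98 ± 0.183 for 211162_x_at and 0.00 ± 0.0982 for 200831_s_at. With the mean of all kept probe sets, SCD stood at 0.24 at 12 h (not called, adjusted p = 0.0663) and at -0.09 at 48 h (adjusted p = 0.394).

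HMGCS1 had a discordant probe set too, 205822_s_at, with 10.13, 10.45 and 10.08 in Di at 12 h, against 8.89, 8.26 and 8.49 in control at 12 h. This change was 1.68 ± 0.294 (adjusted p = 0.00705), while at 48 h the same probe set had 7.52, 8.95 and 8.15 in Di, against 8.87, 8.98 and 9.14 in control (-0.79 ± 0.294, adjusted p = 0.0478). The Di arrays at 48 h spread over more than 1 log2 unit. The HMGCS1 direction at 12 h therefore differed between its probe sets, and their mean gave 0.78 (adjusted p = 0.0154). The mean of probe sets left SREBF2 at -0.07 at 12 h (adjusted p = 0.732) and at -0.22 at 48 h (adjusted p = 0.16), ACLY at -0.12 (0.29) and ACACA at -0.12 (0.19) at 12 h, and SQLE at 0.08 (0.496) at 48 h. For SQLE at 48 h, 213562_s_at was called higher (0.35, limma adjusted p = 0.0104 over probe sets). Probe sets 213577_at (0.21) and 1557352_at (-0.52, mean level 5.43) were not called. MVK kept its call at 12 h with 0.28 (0.0198), and ACSL4 at 48 h with -0.25 (0.0437). IDI1 was read near the floor by its used probe set, while 2 probe sets marked for possible cross-hybridisation read 0.27 and 0.25 at 12 h and -0.24 and -0.15 at 48 h, not called. FASN, SCAP, SREBF1, TM7SF2, PMVK, MSMO1, SC5D and AACS had 1 kept probe set each.

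**Figure D4:**
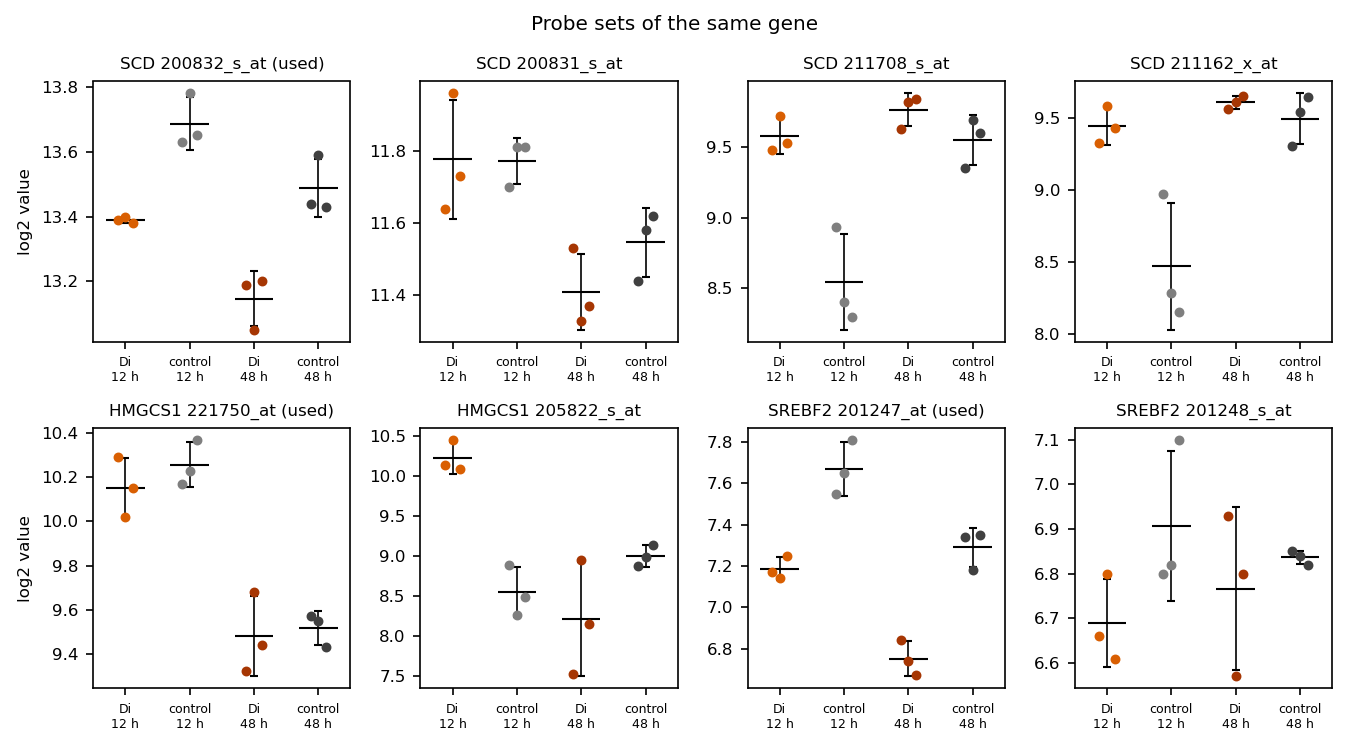
Log2 values of 8 probe sets of SCD, HMGCS1 and SREBF2 in the 4 groups (Di 12 h, control 12 h, Di 48 h, control 48 h), with points for arrays, group means and SDs of 3 arrays. Axes differ between panels and do not start at 0. For SCD, 2 probe sets are high in Di at 12 h against control at 12 h while the used one is low, and for HMGCS1 the other probe set differs by 1.68 at 12 h.

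Genes of neighbouring lipid routes were read from 5 lists of 89 genes, of which 68 were tested. Their counts stand beside 22.9% of all genes called higher and 28.0% lower at 48 h, and 3.9% higher and 9.78% lower at 12 h. In sterol efflux and LXR targets, 1 of 5 tested genes rose and 2 fell at 48 h, which with so few genes is near the share of all genes. ABCA1, the exporter of cholesterol, averaged 11.04 ± 0.0946 with Di, against 10.06 ± 0.054 in control of that time (SD, n = 3 each; change 0.98 ± 0.0695, adjusted p = 5.22e-07). MYLIP, the ligase that degrades lipoprotein receptors, fell by 1.57 ± 0.132 and NR1H3, which encodes an LXR, by 0.74 ± 0.0788 on the log2 scale. Among 9 tested genes of sterol uptake, transport and processing, 2 rose and 2 fell at 48 h (22.2% each), also near the share of all genes. The esterifying enzyme SOAT1 (0.54 ± 0.181) and the lysosomal cholesterol exporter NPC1 (0.50 ± 0.0854) were higher, while TMEM97 (-0.99 ± 0.0789) and the lysosomal carrier NPC2 (-0.28 ± 0.0752) were lower. The SREBP-cutting protease MBTPS1 was the 1 of the 9 called at 12 h, at -0.39 ± 0.0819 (adjusted p = 0.0124).

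Of 15 other tested genes of fatty acid synthesis and elongation, 0 rose and 2 fell at 12 h, and 2 rose (13.3%) and 8 fell (53.3%) at 48 h. ACSS2, which makes acetyl-CoA from acetate, and SCD5, another stearoyl-CoA desaturase, fell at both times. ACSS2 changed by -0.48 ± 0.0897 at 12 h and -1.42 ± 0.0897 at 48 h, and SCD5 by -0.44 ± 0.0782 and -1.54 ± 0.0782. FADS3 (0.94 ± 0.139) and ELOVL7 (0.31 ± 0.0652) rose at 48 h. In triglyceride and phospholipid synthesis and storage, 5 of 18 rose (27.8%, near the share of all genes) and 2 fell (11.1%) at 48 h. The choline kinase CHKA (1.45 ± 0.211, adjusted p = 0.000151) and the lipid droplet coat protein PLIN2 (1.28 ± 0.141, adjusted p = 1.82e-05) rose, and the acyltransferases AGPAT1 (-0.59) and AGPAT2 (-0.39) fell. At 12 h, ABHD5 (0.46) and AGPAT5 (0.21) rose and PLIN3 (-0.24) fell. In fatty acid oxidation, 3 of 21 rose (14.3%) and 9 fell (42.9%) at 48 h, with the coactivator PPARGC1A at -1.50 ± 0.174 and the dehydrogenase HADH at -1.13 ± 0.104, and with PPARA (0.54) and HADHB (0.53) higher. At 12 h, 1 of the 21 was called, ACADVL at -0.47 ± 0.0897 (adjusted p = 0.00837).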

How the data were processed

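The deposited log2 expression values of 12 arrays were made by the authors with GCRMA (version not given), per the submitters' processing notes, which corrects background, normalises and summarises probe sets. They were used with no further normalisation. An array gives no counting depth, and the number of arrays limits the precision. Of 54675 probe sets, 41097 carried 1 gene symbol in the platform annotation, 1801 several and 11777 none. Probe sets above 4 in 3 or more of the 12 arrays were kept. A gene was read from the kept probe set of highest mean, one with suffix _x_at being used only where no other passed. limma 3.58.1 in R 4.3.3 fitted 1 mean per group over all arrays (lmFit, eBayes, two-sided). Contrasts were Di against control at 12 h and at 48 h, the interaction (Di change at 48 h less that at 12 h), and later against earlier control. Benjamini-Hochberg adjustment ran over 10626 genes, and the code was tested on simulated data. No set test was run. Figures used matplotlib 3.10.9.

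The members and the lists of neighbouring genes and markers were chosen with earlier results of these data known. Values in every array are given for up to 8 called members with the largest change per direction and Di comparison, and for INSIG1, HMGCS1, SREBF1, SREBF2, FASN and SCD whatever their values. From each neighbouring list, the 2 called genes with the largest change per direction are named. Other named members were chosen after their values were seen. Alternatives covered the filter, the moderation, the scaling, the probe set rule, the arrays fitted, a replicate block and each array left out in turn.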

Additional observations from a re-analysis of the deposited data

Results flagged for a closer look

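The change with Di, as a difference of log2 values, was itself different between 48 h and 12 h for 15 of the 32 members, by the interaction term of the limma fit (adjusted p under 0.05). It was lower at 48 h for TM7SF2 by -2.50 (adjusted p = 4.32e-06), PMVK by -0.97 (0.00071), SREBF1 by -0.85 (0.00501), MVK by -0.71 (0.00435) and ELOVL6 by -0.59 (0.0196). It was also lower for DHCR7 by -0.57 (0.00349), EBP by -0.48 (0.00343), ACAT2 by -0.47 (0.0013), FDPS by -0.37 (0.00866) and AACS by -0.32 (0.0417). It was higher at 48 h for SCAP by 0.87 (0.00135), FASN by 0.53 (0.00827), SQLE by 0.42 (0.0147), MSMO1 by 0.38 (0.00621) and SC5D by 0.34 (0.0136).

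Each change is read against the control of its own time. MVK in control averaged 6.51 at 48 h and 5.93 at 12 h, and FASN in control averaged 7.28 at 48 h and 9.02 at 12 h, so these differences hold a change of the control. With the mean of all kept probe sets, MVK stood at -0.28 and DHCR7 at -0.35, both still called, while SQLE turned to -0.12 and was not called (adjusted p = 0.504). With median centring, SQLE (0.38, adjusted p = 0.0637) and SC5D (0.30, adjusted p = 0.0824) were not called. The call of AACS ended without any 1 of 8 arrays, namely replicates 1 and 3 of each of the 4 groups, at adjusted p-values of 0.0573 to 0.0948. No group of 3 arrays was tested for an outlying sample.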

How the results depend on the processing

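Of 164 recomputed member counts, 152 stayed within 1.5 times the reported count. The exceptions were mostly at 12 h. There 2 members were called higher, not 1, with no filter, with trend and robust moderation, with median centring and with the mean of all kept probe sets. The 7 called lower at 12 h became 4 with the mean of all kept probe sets, 3 with the arrays of 1 time only and 4 with the replicate block. With the arrays of 1 time only, SCAP (limma adjusted p = 0.0596), ACLY (0.0857), SCD (0.0663) and ACACA (0.0666) were not called. The 5 members whose change was higher at 48 h than at 12 h became 3 with median centring. Within the limit of 1.5 times, the 17 called lower at 48 h became 13 with the mean of all kept probe sets. There SREBF2, SCD, LSS (limma adjusted p = 0.115) and LPIN1 (0.104) were not called. The 17 lower in later control became 13 with quantile normalisation, with median centring and with the mean of all kept probe sets. With each array left out in turn, members called at 12 h numbered 1 in every run for higher and 3 to 7 for lower, at 48 h 3 to 7 higher and 15 to 18 lower, for the difference between times 5 to 6 higher and 9 to 14 lower, and for later control 5 to 7 higher and 13 to 19 lower.

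The sign of a change turned with the mean of all kept probe sets for SCD at 12 h (0.24), HMGCS1 at 12 h (0.78), the SQLE difference between times (-0.12) and, in later control, LSS (0.21) and SCD (0.19), where probe sets of 1 gene differ. Median centring turned the uncalled changes of INSIG1 at 12 h (0.03) and of HMGCS1 at 48 h (0.0049). Leaving out single arrays gave -0.15 to 0.12 for INSIG1 at 12 h and -0.14 to 0.04 for HMGCS1 at 48 h. Over all other results for single genes, 1359 kept their direction and side of the threshold, 105 were no longer called and 1 became called. Single genes were recomputed only where called and, for the Di changes, for INSIG1, HMGCS1, SREBF1, SREBF2, FASN and SCD. Other uncalled members were left out, so the number that became called is not a count over all members. MVK and FASN at 12 h, and at 48 h MSMO1, SC5D, TM7SF2, SREBF1, PMVK, ELOVL6, ACSL1, ACSL4, ACLY, AACS, INSIG1, ACAT2, FDPS, EBP and DHCR7, were called in all 21 alternatives. Not all of these could move a change. A gene with 1 kept probe set keeps its values under either probe set rule. Leaving out an array of the other time alters the error but not the change. An alternative chosen after seeing the data, _x_at probe sets on an equal footing, gave 11 members, not 10, whose change was lower at 48 h than at 12 h, and 18, not 17, that were lower in later control.

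Over all genes at 12 h, 414 were called higher and 1039 lower, which is 28.5% higher among the calls. Median centring gave 735 and 618 (54.3% higher), quantile normalisation gave 38.0% higher, and under these scalings 5 and 6 members were called lower. Median centring ended the calls of SCD (limma adjusted p = 0.123) and ACACA (0.162), and quantile normalisation ended that of ACACA (0.0653). The arrays of 1 time gave 145 and 430, the replicate block 272 and 731, and leaving out control replicate 2 or 3 or Di replicate 3 at 12 h gave 189, 205 and 236 higher and 556, 573 and 735 lower.

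Groups share replicate numbers, and no pairing of samples by number was seen in the values. Deviations within groups of 3 arrays cannot exclude such a pairing. Over 18 pairs of same-numbered arrays, deviations from the group means correlated between -0.394 and 0.167, and 3 pairs exceeded 0.1. With the replicate number as a block, 1 member was called higher and 4 lower at 12 h, 4 higher and 17 lower at 48 h, 5 higher and 9 lower for the difference between times, and 6 higher and 14 lower in later control. The cause of these shifts was not tested. The number of arrays limits the precision, and genes under the floor of 4, such as FADS2, have no measured change.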
